A study of Rattus rattus with 10 samples.

Results

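Collagen chain genes were followed in the testes of rats given gamendazole, lonidamine or vehicle. The collagen chains were every gene whose single symbol in the platform's annotation reads Col, a number, the letter a and a number, and each was represented by its brightest probe set over the 10 arrays. This gave 41 genes, with 58 probe sets, of 14217 named genes on the array. The rule used symbols and brightness over all 10 arrays, treated ones included, and no comparison between treatments. The collagen chains were picked as the subject with earlier results of these data known.

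The animals were Long-Evans males aged 60 days, and each received 1 intraperitoneal injection. Gamendazole was given at 6 mg/kg and its testes were taken at 4, 12 and 24 h (3 arrays). Lonidamine was given at 25 mg/kg and sampled at the same hours (3 arrays). Vehicle, buffered DMSO, was sampled at 0, 4, 12 and 24 h (4 arrays). Both drugs are indazole carboxylic acids that make developing sperm cells detach from Sertoli cells, the epithelial cells of the seminiferous tubule that nourish them. No treatment was replicated at an hour, the labels do not give the number of animals behind an array, and their species field reads Rattus rattus although Long-Evans is a stock of the laboratory rat. The doses differ, so values of the drugs are set side by side without a comparison, and both drugs share the same vehicle arrays.

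Collagens are secreted proteins in which 3 chains wind into a triple helix. In the testis, Sertoli cells and the peritubular myoid cells that surround the tubule lay down its wall together. Type IV collagen forms the sheet of the basement membrane there and around blood vessels, while types I, III and VI make the fibrils and microfibrils of the outer wall and of the interstitium between tubules. In whole tissue, fewer cells of a type and less RNA per cell cannot be told apart.

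The signal is a linear intensity that was scaled to 1 trimmed mean on all arrays, and signals under 37.1 units, the pooled 25th percentile, were set to that floor. A gene was tested where its signal reached 116.2 units, the pooled median, on 2 or more arrays. Array medians lay between 110.2 and 124.5 units, highest on the gamendazole 24 h array. The 3'/5' signal ratio of beta-actin, a check of RNA integrity, ranged from 1.85 to 2.0, and that of GAPDH from 0.723 to 0.853, highest on the gamendazole 24 h array. Instrument records put the arrays into 3 hybridisation runs. The 12 h and 24 h arrays and the lonidamine 4 h array each shared a run with the vehicle array of their hour, and the gamendazole 4 h array did not. Signals of different probe sets are not comparable with each other, so each chain is compared across arrays only.

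Of the 41 chains, 19 passed the filter. They were 5 of 9 basement membrane chains, 4 of 11 fibrillar chains, 3 of 8 chains of microfibrils and networks, 5 of 9 fibril-associated chains and 2 of 4 transmembrane and other chains. Of the 22 others, 20 reached the pooled median on no array, and 12 were at the floor on 5 or more arrays. Just outside the filter were Col9a3, with a highest signal of 134.2 units on the lonidamine 4 h array, and Col8a2, with 126.7 units on the vehicle 0 h array. Each reached the pooled median on 1 array. Just inside it was Col12a1, which passed through its gamendazole 24 h and lonidamine 24 h signals and reached the pooled median on no vehicle array. Its difference is therefore given below as values and supports nothing about the chains as a group.

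The tests were made with limma over all 17549 tested probe sets. In the averaged comparison the 3 hours of a drug were set against the vehicle arrays of the same hours, so the hours stood in for replicates. In the single-hour comparison 1 treated array was set against the 4 vehicle arrays, the only arrays whose spread measured error. In both comparisons limma moved the error of each probe set toward a trend fitted over all tested probe sets. Differences are on the log2 scale with their standard error, and a call needed a Benjamini-Hochberg adjusted p under 0.05. P-values therefore rest on how differences from vehicle varied between hours, or on the spread of the vehicle arrays, and either may be technical. The first may also hold real change with the hour.

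Averaged over the hours, no collagen chain passed the test with either drug by its brightest probe set. A dimmer probe set of Col4a1, given below, passed with gamendazole. With gamendazole, 0 of 19 chains were called by limma, against 3.95% of all tested probe sets. At an unadjusted p under 0.05 there were 5 chains, and 20.0% of all probe sets. The lowest adjusted p was that of Col6a3, a chain of type VI collagen (0.66 ± 0.22, 1.58-fold higher, limma adjusted p = 0.135). With lonidamine, 0 of 19 were called, against 0.781% of all probe sets. At an unadjusted p under 0.05 there was 1 chain, Col20a1, and 12.7% of all probe sets. The precision was limited by the number of arrays, since the median 95% interval of an averaged gamendazole difference reached 0.40 to either side.

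By hour, the single-hour comparisons of the brightest probe sets gave calls with gamendazole at 12 h and 24 h. At 24 h, Col4a1 and Col1a2 were higher and no chain was lower, 2 of 19 against 9.77% of all probe sets, of which 5.69% were higher. At 12 h, Col4a5 was lower and no chain was higher, 1 of 19 against 7.76% of all probe sets, of which 2.85% were lower. Both shares were near those of all probe sets. At 4 h none of the 19 was called with gamendazole, against 1.16%. With lonidamine, limma called none at 4 h (background 0.0684%), 12 h (1.42%) or 24 h (7.0%). A dimmer probe set of Col4a1, given below, was called higher at gamendazole 12 h and 24 h and at lonidamine 24 h. At an unadjusted p under 0.05 limma had 1, 4 and 9 of the 19 chains for gamendazole at 4, 12 and 24 h, where 11.9%, 23.4% and 25.4% of all probe sets were. For lonidamine it had 2, 0 and 7 chains at these hours, where 9.03%, 12.1% and 21.6% of all probe sets were. The 9 chains at gamendazole 24 h included Col12a1, which passed the filter through treated signals only. Each call rested on the vehicle arrays used, and those at 24 h also on the normalization. Without the vehicle array of 0, 12 or 24 h neither Col4a1 nor Col1a2 was called with gamendazole at 24 h, without that of 4 h only Col1a2 was, and without any 1 of the 4 the call of Col4a5 ended. After quantile normalization Col4a1 and Col1a2 were not called at gamendazole 24 h (limma adjusted p = 0.0696 and 0.0786). The call of Col4a5 at 12 h stayed (limma adjusted p = 0.0226).

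Over the 6 treated arrays together, the share of large ratios among the chains was close to that among all probe sets. Of 114 ratios of a treated array to the vehicle array of its hour, taken over 19 chains and 6 arrays, 21 were at least 1.5-fold in either direction, or 18.4%. Over all tested probe sets the share was 18.2%. Between the vehicle arrays themselves it was 9.65% for the chains and 11.3% for all probe sets. By array, the share of chains was 15.8%, 26.3% and 31.6% for gamendazole at 4, 12 and 24 h, where that of all probe sets was 16.4%, 22.0% and 22.2%. For lonidamine it was 10.5%, 5.26% and 21.1%, where that of all probe sets was 12.6%, 16.0% and 20.2%. The chains' share was thus higher than that of all probe sets at gamendazole 24 h and lower at lonidamine 12 h, in counts of 6 and 1 of 19 that were not tested against it. Without Col12a1 the share was 17.6% over the 6 arrays and 27.8% at gamendazole 24 h.

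**Figure D1:**
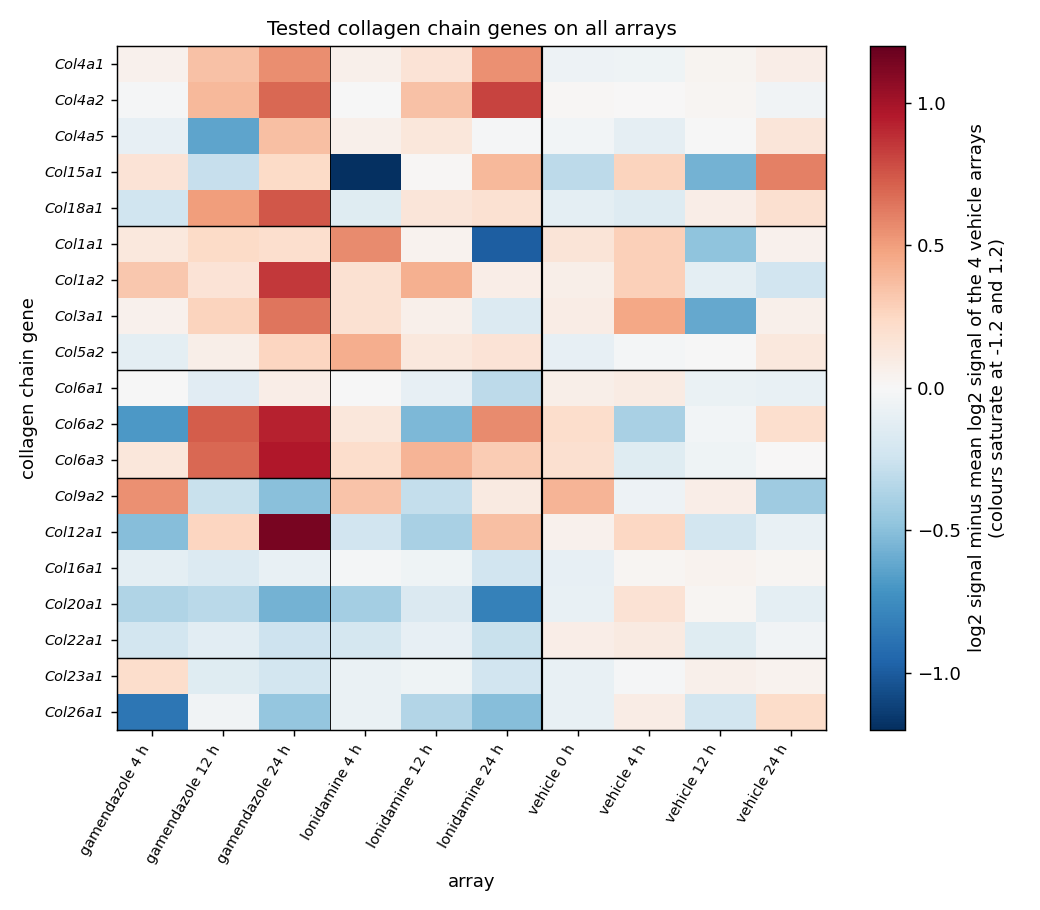
Log2 signal minus the mean log2 signal of the 4 vehicle arrays for the 19 tested collagen chains (rows, with lines between classes) on the 10 arrays (columns: gamendazole, lonidamine, vehicle), as colour from blue (lower) to red (higher). In the gamendazole 24 h column Col12a1, Col6a3, Col6a2 and Col1a2 are the reddest, at 1.14, 0.96, 0.92 and 0.85, and Col20a1 is blue on all 6 treated arrays.

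At gamendazole 24 h the classes leaned in different directions. All 5 tested basement membrane chains (median 0.56), all 4 fibrillar chains (median 0.45) and all 3 type VI chains (median 0.92) were above the vehicle mean. Only 1 of 5 fibril-associated chains, Col12a1, and 0 of 2 transmembrane and other chains were above it, with medians of -0.25 and -0.35. Over all tested probe sets, 8726 of 17549 were above it. At lonidamine 24 h, 4 of 5 basement membrane chains (median 0.39), 2 of 4 fibrillar (median -0.04), 2 of 3 type VI (median 0.30), 2 of 5 fibril-associated (median -0.23) and 0 of 2 of the last class (median -0.37) were above it. The fibril-associated counts and medians include Col12a1, above the vehicle mean with both drugs, which passed the filter through treated signals only. These counts describe classes of 2 to 5 genes, and no test was made of them.

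Among the basement membrane chains, Col4a1 and Col4a2, the pair that builds the common type IV network, had their highest signals at 24 h with both drugs. So did Col18a1 and Col15a1, though the 24 h signals of Col15a1 lay within the vehicle range. Col4a1, the alpha 1 chain, had 546.1, 669.9 and 777.4 units at 4, 12 and 24 h with gamendazole. With lonidamine it had 549.9, 589.1 and 768.5 units, and on vehicle arrays of 0, 4, 12 and 24 h it had 506.3, 507.1, 538.6 and 555.9 units. Both drugs' 12 h and 24 h signals lay above all vehicle arrays, and their 4 h signals lay within the vehicle range. Col4a1 rose at gamendazole 24 h by 0.56 ± 0.13, or 1.48-fold (limma adjusted p = 0.0405, 95% interval 0.25 to 0.87). At lonidamine 24 h it differed by 0.55 ± 0.13 and missed the threshold (limma adjusted p = 0.0545, 95% interval 0.24 to 0.86).

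A dimmer tested probe set of Col4a1 gave larger differences. It had 250.0, 497.9 and 627.1 units with gamendazole at 4, 12 and 24 h. It had 220.0, 309.8 and 550.5 units with lonidamine, and 140.9, 184.7, 158.1 and 244.1 units on the vehicle arrays. The signals of both drugs at 12 h and 24 h, and that of gamendazole at 4 h, lay above all vehicle arrays. By this probe set Col4a1 rose averaged over the gamendazole hours by 1.15 ± 0.23, or 2.22-fold (limma adjusted p = 0.0269), and missed the threshold over the lonidamine hours (0.80 ± 0.23, limma adjusted p = 0.179). At 12 h it rose 2.80-fold with gamendazole (1.48 ± 0.30, limma adjusted p = 0.0283), where the brighter probe set differed by 0.35 ± 0.13 and did not pass (limma adjusted p = 0.17). At 24 h it rose 3.52-fold with gamendazole (1.82 ± 0.30, limma adjusted p = 0.012) and 3.09-fold with lonidamine (1.63 ± 0.30, limma adjusted p = 0.0214). The probe sets of Col4a1 thus gave the same direction at 12 h and 24 h, and differed on whether the averaged gamendazole comparison, the gamendazole 12 h comparison and the lonidamine 24 h comparison passed.

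Col4a2, the alpha 2 chain that pairs with Col4a1, lies next to it in the RefSeq gene table of the assembly Rrattus_CSIRO_v1. It had 199.4, 263.9 and 325.1 units with gamendazole at 4, 12 and 24 h. It had 201.8, 258.3 and 353.6 units with lonidamine, against 203.4, 203.1, 205.1 and 196.4 units on vehicle arrays. The vehicle arrays were within 1.04-fold of each other, the 4 h signals lay at their level, and the 12 h and 24 h signals of both drugs lay above all of them. Against the vehicle array of the hour the 24 h signal was 1.66-fold with gamendazole and 1.80-fold with lonidamine. Neither passed against the pooled vehicle arrays (gamendazole 0.69 ± 0.20, limma adjusted p = 0.071, and lonidamine 0.81 ± 0.20, limma adjusted p = 0.0535).

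Col4a5, a chain of the type IV network with alpha 3 and alpha 4 or with alpha 6, dipped on 1 array. Its signals were 601.9, 415.7 and 829.1 units with gamendazole at 4, 12 and 24 h. They were 674.5, 708.4 and 637.9 units with lonidamine, and 629.7, 598.8, 644.0 and 713.6 units on vehicle arrays. The gamendazole 12 h signal lay below all vehicle arrays and the 24 h signal above all of them. At 12 h Col4a5 fell by 0.63 on the log2 scale (SE 0.14, limma adjusted p = 0.039), at 0.645 of the vehicle signal of that hour.

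Col18a1 encodes type XVIII collagen, a heparan sulfate proteoglycan of basement membranes whose end fragment is endostatin. It had 251.2, 418.6 and 497.3 units with gamendazole at 4, 12 and 24 h. With lonidamine it had 267.9, 328.4 and 337.4 units, and on vehicle arrays 273.3, 266.5, 312.3 and 339.6 units. The gamendazole 12 h and 24 h signals lay above all vehicle arrays and its 4 h signal below all of them, and no lonidamine signal lay above them. The 24 h gamendazole difference was 0.75 ± 0.20 (limma adjusted p = 0.0619), and that of its dimmer tested probe set was 1.22 ± 0.33 (limma adjusted p = 0.058), so neither passed. The dimmer probe set had 177.7, 345.9 and 382.8 units with gamendazole, 162.0, 221.5 and 304.2 units with lonidamine, and 130.2 to 218.3 units on vehicle arrays. By it the lonidamine 12 h and 24 h signals were above all vehicle arrays too, unlike those of the brighter probe set.

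Col15a1, the related type XV chain of basement membrane zones, was variable in vehicle testes. It had 148.5, 109.5 and 155.7 units with gamendazole, and 31.3, 134.3 and 174.2 units with lonidamine at 4, 12 and 24 h. Vehicle arrays had 107.1, 160.2, 89.9 and 201.5 units, a 2.24-fold range. All gamendazole signals lay within that range, and the lonidamine 4 h signal was under the floor, below every vehicle array. Against the floor, the lonidamine 4 h difference was -1.84 and did not pass (limma adjusted p = 0.366).

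**Figure D2:**
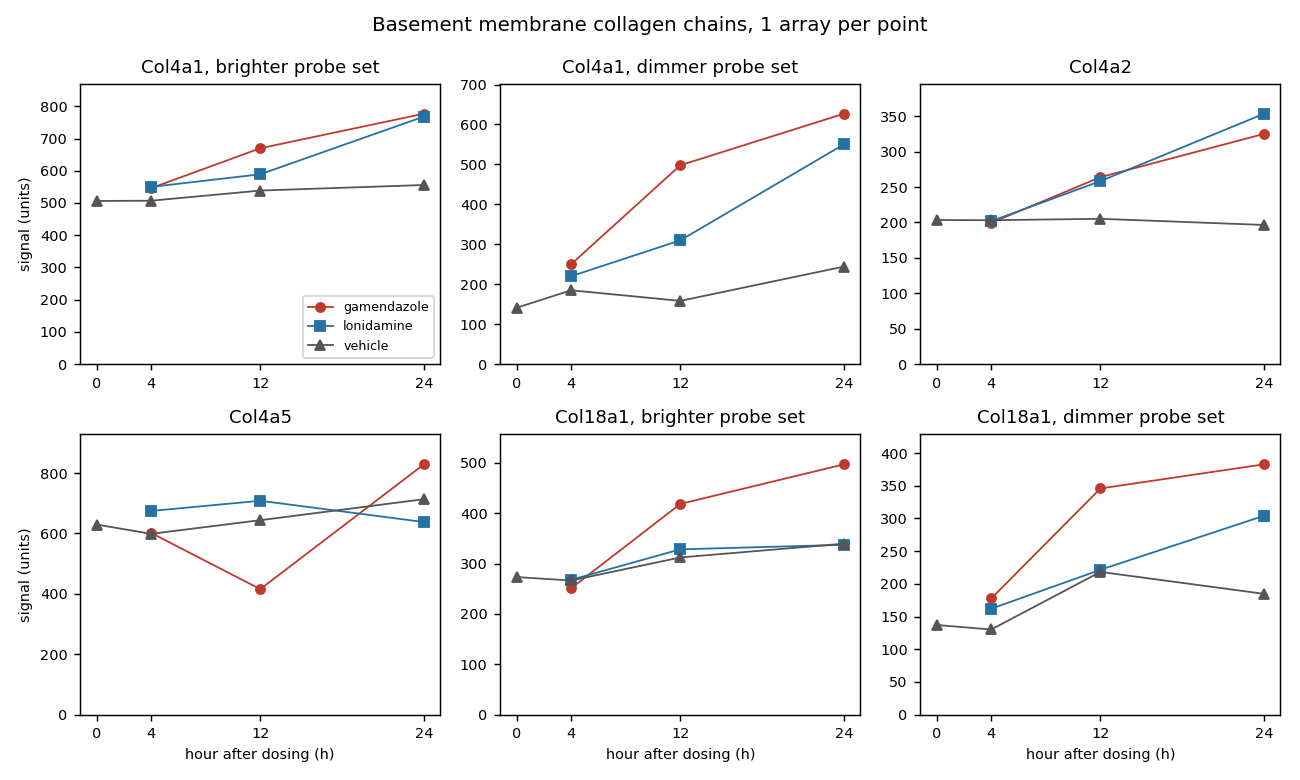
Signal in units against hour after dosing for the basement membrane chains, 1 array per point, with gamendazole, lonidamine and vehicle as separate lines. At 24 h Col4a1 reached 777.4 units with gamendazole and 768.5 with lonidamine, above the vehicle arrays at 506.3 to 555.9, and Col4a2 reached 325.1 and 353.6 units, above the vehicle arrays at 196.4 to 205.1.

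The untested basement membrane chains were Col4a4, Col4a6, Col7a1, the anchoring fibril chain, and Col17a1, the transmembrane hemidesmosome chain. Col4a4 was at or below 54.0 units on all arrays. Col4a6 was highest on the vehicle 12 h array, at 91.4 units, and had 27.1 units at gamendazole 24 h and 28.9 at lonidamine 24 h. Col7a1 and Col17a1 were singled out after their values were seen. Col7a1 was under the floor on all 4 vehicle arrays. It had 115.4 and 78.1 units with gamendazole at 12 and 24 h, and 86.3 and 95 units with lonidamine at 4 and 24 h. These signals were at least 3.11-fold, 2.11-fold, 2.33-fold and 2.56-fold above the floor. On the gamendazole 4 h and lonidamine 12 h arrays it was under the floor. Col17a1 was under the floor on all vehicle and lonidamine arrays, and with gamendazole it had 44.8 units at 12 h and 76.7 units at 24 h, at least 2.07-fold above the floor at the later hour. None of these signals reached the pooled median, so they are given as values only.

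Among the fibrillar chains, type I collagen, the main fibril of connective tissue, has 2 kinds of chain. Col1a2, the alpha 2 chain, had 556.3, 499.2 and 800.6 units with gamendazole at 4, 12 and 24 h. It had 502.9, 597.2 and 470.9 units with lonidamine, against 465.8, 541.0, 409.0 and 378.7 units on vehicle arrays. The gamendazole 24 h signal was the highest of the 10, and those of gamendazole 4 h and lonidamine 12 h also lay above all vehicle arrays. Col1a2 rose there by 0.85 ± 0.21, or 1.80-fold (limma adjusted p = 0.0452, 95% interval 0.36 to 1.33). Its dimmer tested probe set had 579.5 units on that array against 290.8 to 380.5 units on vehicle arrays, and missed the threshold (0.78 ± 0.20, limma adjusted p = 0.0562).

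Col1a1, the alpha 1 chain that is paired with it in type I collagen, had 582.0, 623.8 and 612.2 units with gamendazole. With lonidamine it had 788.3, 547.8 and 267.4 units, and on vehicle arrays 592.9, 647.0, 380.2 and 550.8 units. The gamendazole signals of this brighter probe set lay within the vehicle range. The lonidamine 4 h signal lay above all vehicle arrays and the 24 h signal below all of them, at 0.485 of the vehicle signal of that hour. The 24 h difference was -0.99 ± 0.27 and did not pass (limma adjusted p = 0.0788), although without the vehicle 12 h array it was called. The dimmer tested probe set had 196.8, 175.7 and 336.0 units with gamendazole at 4, 12 and 24 h, and 273.7, 221.4 and 169.3 units with lonidamine, against 189.1 to 261.2 units on vehicle arrays. By it the lonidamine 24 h signal was below all vehicle arrays too (-0.49 ± 0.25, limma adjusted p = 0.321). Unlike the brighter probe set, it put the gamendazole 12 h signal below all vehicle arrays and the 24 h signal above them (0.50 ± 0.25, limma adjusted p = 0.274), and it passed in no comparison.

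Col3a1, the chain of type III collagen in reticular fibrils, had 659.2, 766.2 and 994.4 units with gamendazole and 723.0, 662.5 and 569.0 units with lonidamine. Vehicle arrays had 677.3, 879.1, 414.2 and 663.0 units, a 2.12-fold range, with the 12 h array lowest. Only the gamendazole 24 h signal lay outside that range. Its difference of 0.65 ± 0.34 did not pass (limma adjusted p = 0.29). Ratios at 12 h of 1.85 with gamendazole and 1.60 with lonidamine came with the low vehicle 12 h signal, which was also the lowest vehicle signal of Col1a1. Col5a2, a chain of type V collagen that regulates fibril width, lay between 281.2 and 411.7 units on all arrays and was called in no comparison. In the RefSeq table Col3a1 and Col5a2 are next to each other.

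**Figure D3:**
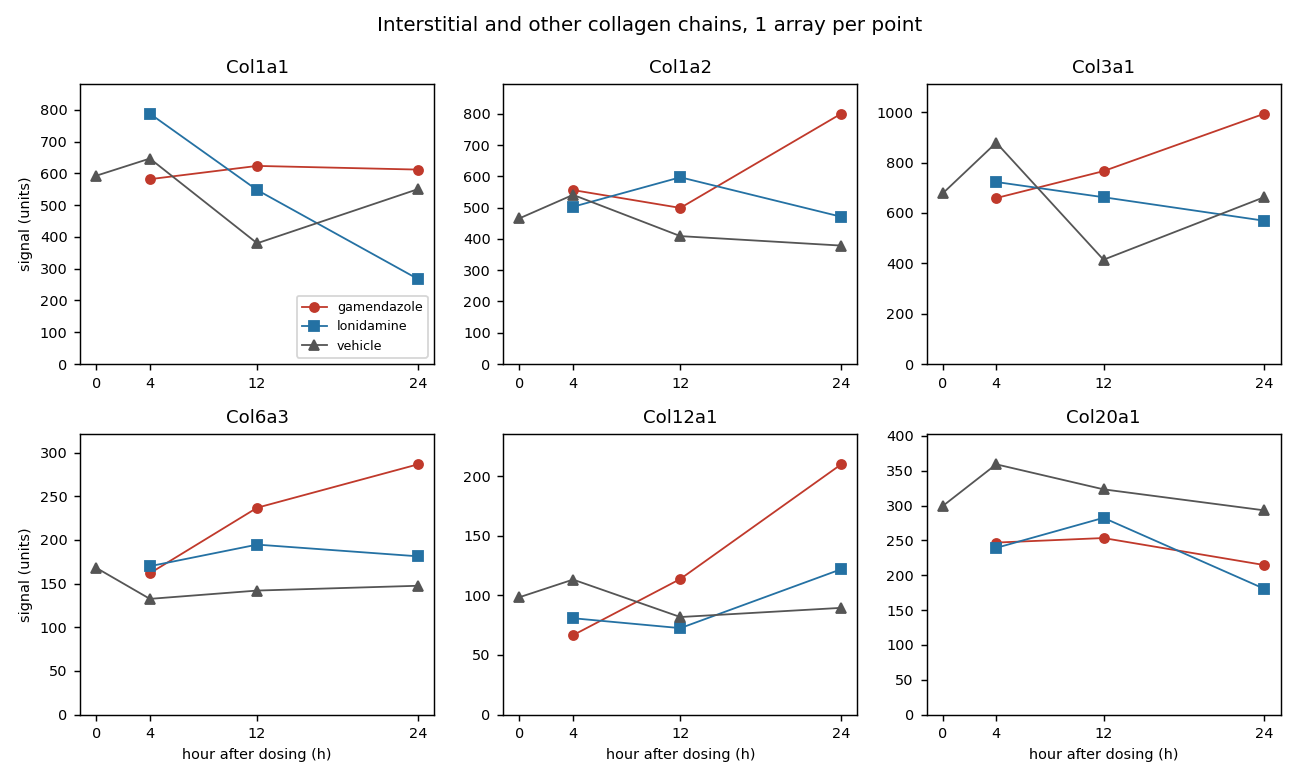
Signal in units against hour after dosing for 6 interstitial and fibril-associated chains, 1 array per point, with gamendazole, lonidamine and vehicle as separate lines. At 24 h Col1a2, Col6a3 and Col12a1 were highest with gamendazole, at 800.6, 286.5 and 209.8 units, and Col20a1 was lower on all 6 treated arrays than on any vehicle array.

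Type VI collagen forms beaded microfibrils around cells, each built from an alpha 1, an alpha 2 and a longer chain. Col6a3, usually that longer chain, had 161.8, 236.8 and 286.5 units with gamendazole at 4, 12 and 24 h. It had 169.9, 194.6 and 181.2 units with lonidamine, against 168.0, 132.5, 142.0 and 147.5 units on vehicle arrays. All treated signals except that of gamendazole at 4 h lay above all vehicle arrays, and the one at lonidamine 4 h did so by under 2 units. The gamendazole 24 h signal was 1.95-fold above the vehicle mean and narrowly missed the threshold (0.96 ± 0.25, limma adjusted p = 0.0544). The averaged lonidamine difference was 0.37 ± 0.22 (limma adjusted p = 0.54). A dimmer probe set of Col6a3 did not pass the filter. It had 114.7 units at gamendazole 24 h and 132.4 at lonidamine 24 h, against 72.7 to 108.1 on vehicle arrays.

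Col6a2, the alpha 2 chain, had 88.6, 236.9 and 271.4 units with gamendazole and 157.8, 98.5 and 212.2 units with lonidamine. Vehicle arrays had 166.1, 109.4, 140.0 and 165.1 units. At 24 h both drugs' signals were above all vehicle arrays, and at 4 h with gamendazole and 12 h with lonidamine the signal was below all of them. The gamendazole 24 h difference was 0.92 ± 0.32 and did not pass (limma adjusted p = 0.12). Col6a1, the alpha 1 chain, was at 1211.3 to 1413.2 units with gamendazole, 1073.0 to 1331.7 units with lonidamine and 1257.8 to 1429.4 units on vehicle arrays. Its vehicle arrays were within 1.14-fold of each other, and it was called in no comparison.

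Among the fibril-associated chains, Col12a1 had its highest signal at gamendazole 24 h and Col20a1 was low on every treated array. Col12a1, the type XII chain that coats type I fibrils, had 66.6, 113.7 and 209.8 units with gamendazole at 4, 12 and 24 h. It had 80.8, 72.5 and 121.9 units with lonidamine, against 98.4, 113.2, 81.8 and 89.5 units on vehicle arrays. Its 24 h signals with both drugs lay above all vehicle arrays. The gamendazole 24 h signal was 2.34-fold that of the vehicle array of the hour, and its difference from the pooled vehicle arrays was 1.14 ± 0.35 (limma adjusted p = 0.0901). A dimmer probe set of Col12a1, which did not pass the filter, had 32.8 units at gamendazole 24 h, under the floor. Its vehicle signals at 0, 4, 12 and 24 h were 72.5, 71.3, 52.0 and 3.0 units.

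Col20a1, the type XX chain, had 246.9, 253.4 and 214.6 units with gamendazole and 239.3, 282.4 and 180.5 units with lonidamine. Vehicle arrays had 299.2, 359.2, 323.3 and 293.1 units. It was the only tested chain whose 6 treated signals all lay on 1 side of the 4 vehicle signals, which held below the vehicle range for 2.91% and above it for 4.37% of all tested probe sets. Its mean was 238 ± 20.8 units with gamendazole (SD, n = 3), 234 ± 51.2 with lonidamine (SD, n = 3) and 319 ± 30.0 on vehicle arrays (SD, n = 4). The averaged differences were -0.45 ± 0.17 with gamendazole (limma adjusted p = 0.183) and -0.49 ± 0.17 with lonidamine (limma adjusted p = 0.265), and neither passed. At lonidamine 24 h the difference was -0.82 ± 0.21 (limma adjusted p = 0.0617).

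The other fibril-associated chains were Col9a2, Col16a1 and Col22a1. Col9a2, a type IX chain known from cartilage, was at or below 161.3 units on all arrays. Col16a1 lay between 5962.6 and 7207.1 units and Col22a1, a chain of tissue junctions, between 918.7 and 1196.2 units. None of the 3 was called in any comparison. In the last class, Col23a1, a transmembrane collagen, lay between 838.3 and 1132.4 units. Col26a1, a chain found in mouse testis and ovary, had 224.5, 396.2 and 295.2 units with gamendazole and 386.7, 319.2 and 286.2 units with lonidamine, against 383.9, 435.8, 350.2 and 475.4 units on vehicle arrays. Its gamendazole 4 h signal was the lowest of the 10 and its difference of -0.86 ± 0.21 did not pass (limma adjusted p = 0.136). That array was hybridised in another run than the vehicle array of 4 h, and the part of the run in this value was not tested.

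By size alone, the chains at least 1.5-fold above all 4 vehicle arrays at gamendazole 24 h were Col4a2, Col6a2, Col6a3 and Col12a1, 4 of 19 against 6.94% of all probe sets, or 3 of 18 without Col12a1. At lonidamine 24 h Col4a2 was so far above (background 6.54%) and Col20a1 so far below (background 2.68%). At 4 h, Col26a1 was below with gamendazole (background 1.82%) and Col15a1 with lonidamine (background 0.952%). At 12 h no chain was that far outside, where 6.3% of all probe sets were above and 3.28% below with gamendazole, and 3.33% above and 1.52% below with lonidamine. Simply above all vehicle arrays at gamendazole 24 h were 10 of 19 chains, where 30.3% of all probe sets were, and 5 were below, where 30.5% were; without Col12a1, 9 of 18 were above. At lonidamine 24 h, 6 were above (background 25.6%), or 5 of 18 without Col12a1, and 7 below (background 31.0%).

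Among enzymes and chaperones that make collagen, P4ha2, P4hb and Serpinh1 rose with both drugs at 24 h. Of 16 tested genes of collagen folding and modification, limma called 1 higher and 0 lower averaged over the gamendazole hours (median 0.19) and 1 higher and 0 lower over the lonidamine hours (median 0.26), where 3.95% and 0.781% of all probe sets were called. At 24 h there were 4 higher with gamendazole (median 0.32; background 9.77%) and 3 higher with lonidamine (median 0.44; background 7.0%), with none lower. Whether these genes were called more often than the chains was not tested. P4ha2, a catalytic subunit of the prolyl 4-hydroxylase that stabilises the triple helix, had 1479.3, 1830.3 and 1296.3 units with gamendazole and 1030.6, 1680.9 and 1366.7 units with lonidamine. Vehicle arrays had 752.1, 756.0, 796.9 and 724.5 units, and all 6 treated signals lay above them. P4ha2 rose by 1.0 ± 0.13 averaged over the gamendazole hours (limma adjusted p = 0.00573) and by 0.81 ± 0.13 over the lonidamine hours (limma adjusted p = 0.0329). P4ha1, its alternative subunit, was called in no comparison.

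P4hb, the beta subunit of that enzyme and also a general protein disulfide isomerase, had 1321.1, 2631.8 and 4208.7 units with gamendazole and 1241.0, 1556.3 and 2959.0 units with lonidamine, against 1117.7 to 1258.9 units on vehicle arrays. It rose 3.53-fold at gamendazole 24 h (limma adjusted p = 0.000206) and 2.48-fold at lonidamine 24 h (limma adjusted p = 0.000638). Serpinh1, the collagen chaperone HSP47, had 320.0, 482.0 and 743.2 units with gamendazole and 312.3, 294.4 and 476.7 units with lonidamine, against 268.5 to 306.2 units on vehicle arrays. The 24 h signals of both drugs were above the vehicle range, and the rises were 2.62-fold with gamendazole (limma adjusted p = 0.00358) and 1.68-fold with lonidamine (limma adjusted p = 0.0415). The prolyl isomerase Ppib was called at gamendazole 24 h, at 1.29-fold (limma adjusted p = 0.0334).

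Of 6 tested genes of collagen maturation and crosslinking, 1 was higher over the gamendazole hours (background 3.95%) and 0 over the lonidamine hours (background 0.781%), and 2 were higher at 24 h with gamendazole (background 9.77%) and with lonidamine (background 7.0%). Lox, 1 of these, reached the pooled median on no vehicle array and so passed the filter through its treated signals. Without it, 0 of 5 genes were called in either averaged comparison and 1 of 5 at 24 h with each drug (medians 0.37 with gamendazole and 0.40 with lonidamine). The called genes were Lox, the lysyl oxidase that crosslinks fibrils, and Tgm2, a transglutaminase that crosslinks matrix proteins. Lox had 148.8, 192.5 and 215.9 units with gamendazole and 163.2, 169.0 and 216.2 units with lonidamine, against 86.6, 84.7, 59.3 and 51.3 units on vehicle arrays. No treated signal overlapped the vehicle signals. Its averaged difference was 1.53 ± 0.30 with gamendazole (limma adjusted p = 0.025) and 1.51 ± 0.30 with lonidamine (limma adjusted p = 0.0561). As for Col12a1, these values describe the gene and support nothing about the list, since a gene that passes the filter in this way had to differ. Tgm2 rose by 1.46 ± 0.20 at gamendazole 24 h (limma adjusted p = 0.00552) and by 1.83 ± 0.20 at lonidamine 24 h (limma adjusted p = 0.00257), while its 4 h signals of 601.2 and 550.3 units lay near the vehicle arrays, at 558.7 to 810.3 units.

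Of 5 tested collagen receptors and uptake genes, 1 was higher over the gamendazole hours (background 3.95%), 0 over the lonidamine hours (background 0.781%) and 1 at 24 h with gamendazole (background 9.77%) and with lonidamine (background 7.0%). Cd44 and Ddr2 passed the filter through treated arrays only, and the other 3 had medians at 24 h of 0.91 with gamendazole and 0.42 with lonidamine. The gene was in each case Itgb1, the beta 1 subunit shared by the collagen-binding integrins and by many others. It had 2100.0, 3598.4 and 3038.8 units with gamendazole and 980.2, 2490.3 and 3478.0 units with lonidamine, against 636.9 to 983.5 units on vehicle arrays. Its lonidamine 4 h signal lay within the vehicle range and the other treated signals above it, and at lonidamine 24 h it rose by 2.11 ± 0.21 (limma adjusted p = 0.00178). Itga1, the alpha chain of a collagen-binding integrin, differed by 0.91 ± 0.48 at gamendazole 24 h (limma adjusted p = 0.286). Ddr1, a collagen receptor kinase, differed by -0.46 ± 0.13 over the gamendazole hours (limma adjusted p = 0.0885) and by -0.58 ± 0.13 over the lonidamine hours (limma adjusted p = 0.0923), and neither passed. Itga1 and Ddr1 were named after their values were seen.

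Of 11 tested partners of collagen in the basement membrane, 1 was higher over the gamendazole hours (median -0.08; background 3.95%) and 0 over the lonidamine hours (median -0.04; background 0.781%). At 24 h, 1 was higher with gamendazole (median 0.10; background 9.77%) and 1 was lower with lonidamine (median -0.21; background 7.0%), so 1 of 11 was near the share of all probe sets. Lamc1, the laminin gamma 1 chain, had 456.6, 886.7 and 810.9 units with gamendazole and 438.6, 479.0 and 560.5 units with lonidamine, against 279.4 to 352.1 units on vehicle arrays. All treated signals lay above the vehicle arrays, and Lamc1 rose by 1.08 ± 0.21 over the gamendazole hours (limma adjusted p = 0.0229). Over the lonidamine hours it differed by 0.59 ± 0.21 (limma adjusted p = 0.274). The gene lower at lonidamine 24 h was Smoc1, a calcium-binding protein of basement membranes, at 38.3 units against 108.6 to 197.5 units on vehicle arrays (limma adjusted p = 0.0246).

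Of 14 tested partners in the interstitial matrix, limma called none in either averaged comparison (background 3.95% with gamendazole and 0.781% with lonidamine), with 5 and 1 at an unadjusted p under 0.05. At 24 h, 2 were higher with gamendazole (median 0.65; background 9.77%) and 1 with lonidamine (median 0.03; background 7.0%). Fn1, Tnc and Emilin1 passed the filter through treated arrays only. Without them, 1 of 11 was called with gamendazole (median 0.07) and 0 of 11 with lonidamine (median -0.07) at 24 h. Fn1, fibronectin, had 90.8, 469.9 and 621.6 units with gamendazole and 97.6, 105.8 and 348.7 units with lonidamine, against 68.3 to 107.9 units on vehicle arrays. Its 12 h signal with gamendazole and its 24 h signals with both drugs were above the vehicle range. At 24 h it was 7.01-fold the vehicle level with gamendazole (limma adjusted p = 0.00325) and 3.93-fold with lonidamine (limma adjusted p = 0.0148), in a gene that reached the pooled median on no vehicle array, so that these values too support nothing about the list. Fbn1, the microfibril protein fibrillin 1, rose by 1.41 ± 0.21 at gamendazole 24 h (limma adjusted p = 0.00753) and differed by 0.74 ± 0.21 at lonidamine 24 h (limma adjusted p = 0.0833).

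**Figure D4:**
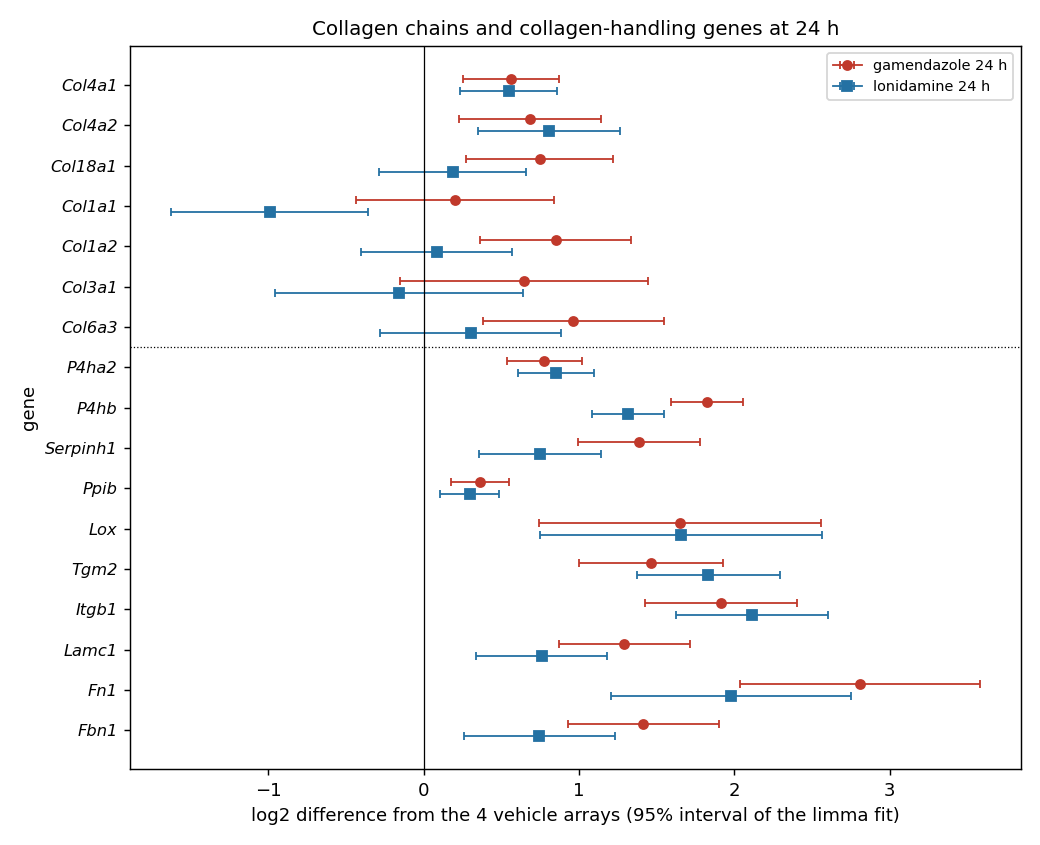
Log2 difference at 24 h from the 4 vehicle arrays for 7 collagen chains (above the dotted line) and 10 collagen-handling or partner genes (below it), with the 95% interval of the limma fit as bars and gamendazole above lonidamine for each gene. P4hb reached 1.82 with gamendazole and 1.31 with lonidamine, Fn1 and Lox were tested through their treated signals only, and the collagen chains lay between 0.20 and 0.96 with gamendazole and between -0.99 and 0.81 with lonidamine.

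Cell markers that could carry collagen RNA also differed between the arrays. The summed signal of 11 peritubular and smooth muscle markers was 4085.8 to 4832.5 units with gamendazole and 4171.1 to 4958.8 with lonidamine, against 3920.3 to 4359.3 on vehicle arrays. None of the 11 was at the floor on all arrays. Of the 9 tested, 1 was called higher at gamendazole 24 h (background 9.77%) and 2 at lonidamine 24 h (background 7.0%), and none lower. At gamendazole 24 h their differences ran from -0.13 to 1.61 (median 0.12, 8 of 9 above 0), and at lonidamine 24 h from -1.30 to 1.75 (median 0.29, 6 of 9 above 0). The called genes were Des, a muscle filament gene, with both drugs (1.61 ± 0.26 with gamendazole, limma adjusted p = 0.0111, and 1.70 ± 0.26 with lonidamine, limma adjusted p = 0.0109), and Acta2, smooth muscle actin, with lonidamine (0.63 ± 0.12, limma adjusted p = 0.0252). The summed signal of the 9 endothelial markers found was 1955.1 units at lonidamine 24 h, with 3 markers called higher there (Vwf, Eng and Esam), and 1319.3 units at gamendazole 24 h, against 1052.5 to 1250.8 units on vehicle arrays. At lonidamine 24 h, 6 of the 7 tested endothelial markers were above 0 (median 0.40, background of calls 7.0%). At gamendazole 24 h, 5 of the 7 were above 0 and 2 below (median 0.26, background of calls 9.77%). Only the endothelial receptor Tek was called there, and it was lower (-1.09 ± 0.24, limma adjusted p = 0.0312). The part of these markers in the Col4a1 and Col4a2 values was not tested.

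The 9 fibroblast and perivascular markers summed to 2783.3 to 3862.1 units with gamendazole and 2967.8 to 3200.5 with lonidamine, against 2998.4 to 3378.1 on vehicle arrays. The highest sum was that of gamendazole 24 h, where 2 of the 5 tested were called higher and none lower (median 0.42, background 9.77%). Of these 5, 4 were above 0 and 1 below. The counts and the median include Ly6h, which passed the filter through treated arrays only, so they support nothing about the list. The fibroblast receptor Pdgfra rose at gamendazole 24 h by 1.11 ± 0.21 (limma adjusted p = 0.0177). Cspg4, a pericyte marker, was at the floor on all arrays. The 11 Sertoli cell markers found summed to 31398.1 to 38478.1 units with gamendazole and 29619.1 to 36747.3 with lonidamine, above the 26455.2 to 28398.6 units of the vehicle arrays. Each of these sums is weighted toward its brightest markers. Of the 9 Sertoli markers tested, 6 were above 0 and 3 below at gamendazole 24 h (median 0.13), with 2 called higher and 1 lower (background 9.77%). At lonidamine 24 h, 7 were above 0 and 2 below (median 0.36), with 2 called higher and none lower (background 7.0%). The 8 germ cell markers found summed to 215641.1 to 240703.0 units with gamendazole and 219533.0 to 239758.1 with lonidamine, below the 248419.3 to 260232.2 units of the vehicle arrays. The 8 Leydig cell markers summed to 15441.0, 7547.9 and 5178.9 units with gamendazole at 4, 12 and 24 h. With lonidamine they summed to 8789.0, 6650.1 and 6344.4 units, against 8586.9 to 11039.0 on vehicle arrays. At gamendazole 24 h, 5 of 8 Leydig markers were called lower and 1 higher, and 5 of 8 germ cell markers lower and 0 higher (background 9.77%). At lonidamine 24 h, 4 of 8 Leydig markers were lower and 1 higher, and 4 of 8 germ cell markers lower and 0 higher (background 7.0%). The 10 macrophage and leukocyte markers summed to 12154.9 to 13792.1 units with gamendazole and 11481.8 to 14186.2 with lonidamine, against 11992.1 to 12468.7, and the 4 erythrocyte markers to 4938.4 to 8842.6 and 4165.1 to 5339.2, against 3159.3 to 4253.5. Of 9 macrophage and leukocyte markers tested, 2 were called higher at gamendazole 24 h (background 9.77%) and 3 at lonidamine 24 h (background 7.0%), with 0 lower. These 9 include Ptprc, which passed the filter through treated arrays only. Of 3 erythrocyte markers tested, 1 was higher and 1 lower at gamendazole 24 h, and 0 were called at lonidamine 24 h. The part of all these markers in the differences of Col1a2, Col6a3, Col20a1 and the other chains was not tested.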

How the data were processed

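RNA of whole testis was measured on 10 Affymetrix Rat230_2 arrays. The deposited unit is a linear intensity for each probe set, made with GCOS 1.1 per the submitters' processing notes; their trimmed mean, with 2% trimmed at each end, is 500.2 on every array. After 57 control probe sets were left out, 31042 remained; 20826 had 1 symbol in the platform's annotation, 436 several and 9780 none listed. A RefSeq gene table shared 0 identifiers with it, and 39 of the 41 chains matched by symbol.

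Values under 37.1 were set to it, log2 was taken, and 17549 probe sets at or above 116.2 on 2 or more arrays were tested with limma 3.58.1 (R 4.3.3, eBayes with a variance trend, Benjamini-Hochberg over all of them). The averaged fit used the 9 arrays of 4, 12 and 24 h with hour as a factor (4 residual degrees of freedom), and the single-hour fit all 10 arrays (3 residual degrees of freedom). The fits were also run on simulated arrays with independent noise and a gamendazole shift that was the same at every hour. The simulated arrays held no effect of hour or run, so they cannot show how the fits handle such effects. No 2 arrays held identical values (0 pairs).

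Values on every array are given for chains called in a comparison, for Col1a1, Col1a2, Col3a1, Col4a1, Col4a2, Col15a1 and Col18a1, and for chains at least 1.5-fold outside all vehicle arrays. Of each list of collagen-handling or matrix partner genes the called genes are named, at most 4 a direction. Of the cell marker lists only some called genes are named, and the others called at 24 h are given by count. Members and lists were chosen with earlier results of these data known. Alternatives covered the floor, filter, normalization, variance trend, probe set, hour, run and arrays left out. Sequences of the chains are not shown.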

Additional observations from a re-analysis of the deposited data

How the results depend on the processing

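Counts below are of collagen chains called by limma at an adjusted p under 0.05. Averaged over the hours, the count stayed at 0 for both drugs under alternatives of the floor, filter, normalization, variance trend, mean of probe sets, arrays or hours left out, hybridisation run in place of the hour and the vehicle 0 h array added. No paired analysis was possible beyond the hour, because replicate numbers only order the hours; with no replicate block, that is with the hour left out, the counts were also 0. With alternatives chosen after seeing the data, the gamendazole count was 1 (Col4a1) when dimmer tested probe sets replaced the brightest and 1 when every tested probe set was counted. At gamendazole 12 h the count was 1, against 0 with the floor at the 50th percentile, 4 without a filter, 0 without the variance trend, 2 with the mean of probe sets, 2 with dimmer probe sets, 2 with every probe set, and 0 to 0 with 1 vehicle array left out. At gamendazole 24 h it was 2, against 4 with the floor at the 50th and 4 at the 10th percentile, 5 without a filter, 0 after quantile normalization, 3 with the mean of probe sets, 1 with dimmer and 3 with every probe set, and 0 to 1 with 1 vehicle array left out. It was also 2 without the variance trend, but for Col4a2 and Col6a3. At lonidamine 24 h it was 0, against 2 (floor at the 50th percentile), 4 (10th percentile), 3 without a filter, 2 with the filter at the 75th percentile, 1 after cyclic loess, 1 without the variance trend, 3 with the mean of probe sets, 1 with dimmer and 1 with every probe set, and 0 to 1 with 1 vehicle array left out. Without a filter lonidamine had 2 chains at 4 h and 1 at 12 h. The cause of these shifts was not tested. For single chains, 393 values kept their direction and side of the threshold, 28 passed it newly, 21 lost it and 0 changed sign. Only the calls of Col4a5 at gamendazole 12 h and of Col1a2 and Col4a1 at gamendazole 24 h could be lost, so all 21 losses were theirs. The other values were not called in the main setting, so the 393 do not measure how stable the calls were. The floor limits what can be said of the 22 untested chains.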
